A study of Drosophila melanogaster with 4 samples.

Results

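The 10 genes described here act in programmed cell death, in signalling through the Jun N-terminal kinase (JNK) or in the response to damaged tissue. They are the inhibitor of apoptosis (IAP) antagonists rpr, hid and skl, the IAP Diap1, the JNK ligand egr, the JNK targets puc, Mmp1 and Ets21C, and the damage response factors Xrp1 and Irbp18. They were chosen by name and function, with earlier results of these data known. Each symbol matched 1 of the 17753 genes in the table. All 10 were among the 11757 genes with an adjusted p-value.

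RNA came from pooled heads of Drosophila melanogaster at day 30 of adult life. The 2 lamin-B overexpression samples had the genotype Hsp70-Gal4/+; +/UAS-LamB.GFP, in which Gal4 under a heat shock gene promoter drives lamin B fused to GFP. The 2 control sibling samples were +/+; +/UAS-LamB.GFP, so both groups carried the transgene and only the overexpression group carried the driver. No group carried the driver alone, so effects of the driver and of the overexpression cannot be told apart. The labels give no sex, no heat shock and no separate cultures, so the p-values rest on a spread between samples that could be technical. In bulk heads, fewer cells of a type and less RNA per cell cannot be told apart.

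Caspases, the proteases that carry out apoptosis, are held in check in flies by Diap1. The proteins of rpr, hid and skl bind Diap1 and free the caspases, and their transcription is a main point of control of apoptosis in flies. JNK is activated by stress, by wounds and by Eiger, the tumour necrosis factor of flies, and switches on genes of wound closure, matrix remodelling and its own inhibition.

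Of the 10 genes, 3 were higher in the overexpression heads in the authors' deposited table at an adjusted p-value under 0.05, namely Ets21C, Mmp1 and Diap1, and 0 were lower. Over all genes tested the same Wald test called 8.74%, with 5.66% higher and 3.07% lower. They encode a transcription factor, a matrix protease and a death inhibitor. The death-inducing genes rpr, hid and skl, the ligand egr, the feedback phosphatase puc and both damage response factors did not pass the test. The call of Diap1 and, in part, those of Ets21C and Mmp1 depended on the test used, as given with each gene.

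Reads in each library were recovered as whole numbers from the authors' mean, fold change and standard error (SE), and each recovered library is known by its size factor, the number its reads are divided by to correct for depth. Values below are normalized reads, that is, reads divided by the size factor, except where they are called reads alone. They are given first for the overexpression libraries of size factor 1.15 and 1.10, then for the control libraries of size factor 1.09 and 0.73. Recovered reads summed to 16.8 M, 16.5 M, 16.6 M and 11.0 M (M, 1000000 reads), which covers 44.6% of the summed mean, since genes with a mean above 10000 other than Xrp1 were left unrecovered. Lam, which encodes lamin B, had 4414 and 4758 normalized reads in the overexpression libraries against 2109 and 2130.3 in the controls. Head genes were abundant, with a mean of 1176380.0 normalized reads for the rhodopsin gene ninaE. Genes of the male tract had almost no reads in the controls: the 5 listed sum to 2793 and 4218 normalized reads in the overexpression libraries and to 6.43 and 12.3 in the controls.

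**Figure D1:**
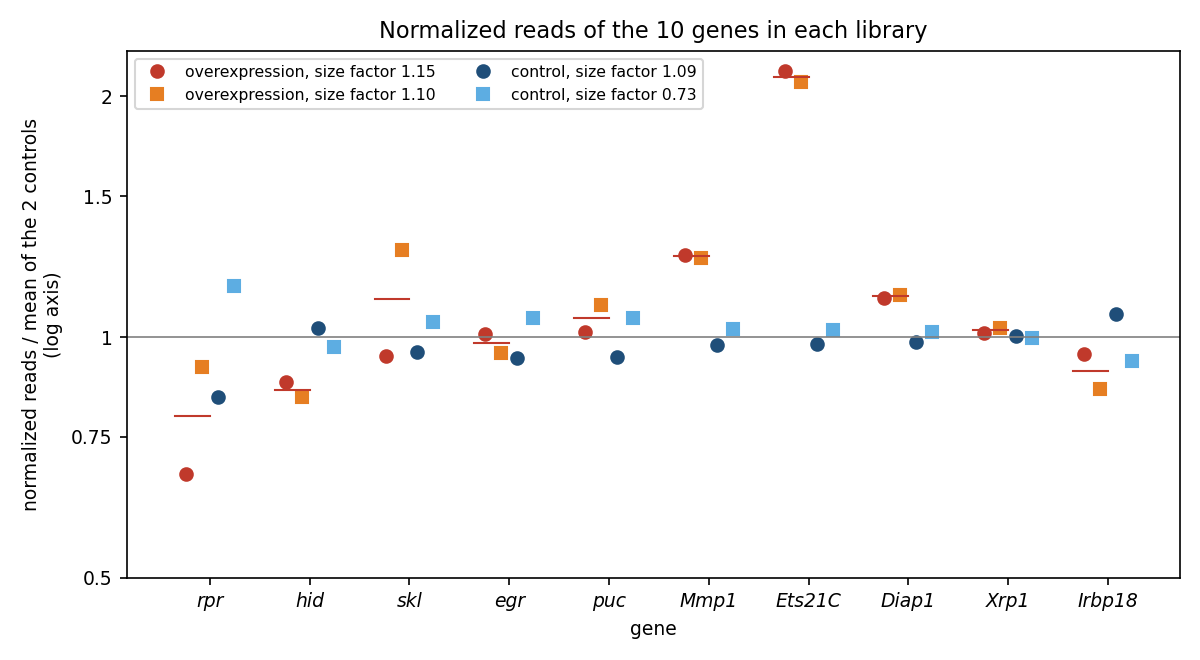
Normalized reads of the 10 genes in each of the 4 libraries, divided by the mean of the 2 controls, on a log axis; short red lines mark the mean of the overexpression libraries and the grey line the mean of the controls. Ets21C lies near 2.12 times the control mean in both overexpression libraries, Mmp1 near 1.26 and Diap1 near 1.12, while the libraries of rpr, skl, egr, puc and Irbp18 overlap.

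The IAP antagonists lie together on chromosome arm 3L, and none passed the test. rpr (reaper, FBgn0011706, 3L:18397535-18398435 on build BDGP6), whose short protein binds IAPs, had 27.9 and 38.0 normalized reads in the overexpression libraries against 34.9 and 48.0 in the controls. The lowest value was an overexpression library and the highest a control, and the groups overlapped. These values rest on 32 and 42 reads against 38 and 35, so the ratio of summed reads, 0.820, had an exact binomial 95% interval from 0.585 to 1.15 for counting error alone. In the authors' deposited table its log2 fold change was -0.06 with an SE of 0.127 and an adjusted p of 0.897. With the shrinkage undone, the 95% interval of its ratio was wider, from 0.328 to 1.94.

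hid (FBgn0003997, 3L:18167745-18185641), which encodes the IAP antagonist that growth factor signalling through the MAP kinase represses, had 492 and 472 normalized reads in the overexpression libraries against 576 and 546 in the controls. Both overexpression libraries lay below both controls, an order that 24.6% of the genes with recovered reads showed. In the authors' deposited table the log2 fold change was -0.17 with an SE of 0.134 and an adjusted p of 0.580. With the shrinkage undone, the log2 ratio was -0.22 with a 95% interval from -0.56 to 0.12, so levels between 0.678 and 1.09 times the control level were within the interval.

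skl (sickle, FBgn0036786, 3L:18438561-18439942), another IAP antagonist, had 90.8 and 123 normalized reads in the overexpression libraries against 91.8 and 100.1 in the controls. The overexpression libraries held both the highest and the lowest value. The log2 fold change in the authors' deposited table was 0.06 with an SE of 0.156 and an adjusted p of 0.929. The remaining IAP antagonist of the cluster, grim, had 4 and 1 reads in the overexpression libraries against 5 and 2 in the controls, and no adjusted p-value.

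From hid to skl the annotation holds 17 genes over 272 kb, of which 5 were tested. Only CG5103 among these 5 was called, with an adjusted p of 0.0154 in the authors' deposited table. Its reads were 48 and 204 in the overexpression libraries against 4 and 0 in the controls, so most came from the library of size factor 1.10. Within 20 kb, hid and skl each had only 1 tested neighbour, CG13699 and CG32196. Neither was called, where 8.74% of all genes tested were.

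Diap1 (FBgn0260635, 3L:16038410-16051034), the IAP that binds and ubiquitinates caspases, was higher in the overexpression heads by a small amount. It had 8862 and 8937 normalized reads in the overexpression libraries against 7791 and 8033 in the controls. Both overexpression libraries lay above both controls, as they did in 31% of the genes with recovered reads. The authors' deposited table gives a log2 fold change of 0.16 with an SE of 0.0556 and an adjusted p of 0.0391. The ratio of normalized reads was 1.12, and its log2 value of 0.17 had a 95% interval from 0.06 to 0.28, from the SE with its shrinkage undone. The call did not hold when the authors' p-values were adjusted over every gene that has one, where the adjusted p was 0.0508. It was also lost in limma-voom fits to the recovered reads, with adjusted p from 0.0519 to 0.117 over 5 settings with all 4 libraries.

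Among the other IAPs and IAP antagonists, no gene was called. In that list of 8 tested genes Diap1 was the only call, where 8.74% of all genes tested were called. The median log2 fold change was 0.04, beside 0.01 over all genes tested. Bruce, a very large protein with an IAP repeat and a ubiquitin-conjugating domain, had the highest mean of the list and a log2 fold change of -0.10 with an adjusted p of 0.723 in the authors' deposited table.

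None of 10 tested genes for caspases, the apoptosome and Bcl-2 proteins was called, where 8.74% of all genes tested were. At that share a list this short would hold few calls. Their median log2 fold change was -0.02. Buffy, a Bcl-2 family member, came nearest in the authors' deposited table, with a log2 fold change of -0.43, an SE of 0.154 and an adjusted p of 0.0537. Its normalized reads were 456 and 397 in the overexpression libraries against 801 and 562 in the controls, so both overexpression libraries lay below both controls. Debcl, the other Bcl-2 family gene and the most abundant of the list, had a log2 fold change of 0.00 with an adjusted p of 0.995 in the same authors' deposited table.

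egr (eiger, FBgn0033483, 2R:10078366-10084210), which encodes the ligand that starts JNK signalling at the cell surface, had 1422 and 1346 normalized reads in the overexpression libraries against 1326 and 1489 in the controls. Both overexpression values lay between the 2 controls. Its log2 fold change in the authors' deposited table was -0.02 with an SE of 0.108 and an adjusted p of 0.973. The 95% interval of its ratio ran from 0.830 to 1.17. Of its 11 tested neighbours within 20 kb, 14-3-3zeta was called lower.

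Of the 21 tested genes for the JNK ligand, receptors and kinases, 0 were called higher and 1 lower. Over all genes tested 5.66% were called higher and 3.07% lower. The median log2 fold change of the list was -0.06. The lower gene was aPKC, a kinase of epithelial polarity that is not itself part of the kinase cascade, with a log2 fold change of -0.25 and an adjusted p of 0.0454 in the authors' deposited table. A limma-voom fit with size factors gave it an adjusted p of 0.137. Traf4, an adaptor that links receptors to the cascade, had a log2 fold change of 0.41 and an adjusted p of 0.0636, and msn, an upstream kinase with the highest mean of the list, -0.12 and 0.424, both from the authors' deposited table.

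puc (puckered, FBgn0243512, 3R:8105332-8122294), the phosphatase that JNK induces and that switches JNK off, is the common reporter of the pathway in flies. It had 2248 and 2427 normalized reads in the overexpression libraries against 2090.25 and 2340.1 in the controls. The groups overlapped, with 1 control above 1 overexpression library. In the authors' deposited table its log2 fold change was 0.07 with an SE of 0.0983 and an adjusted p of 0.826. The 95% interval of its log2 ratio, -0.14 to 0.29, did not reach the log2 ratio of 1.08 found for Ets21C. That interval did hold the log2 ratio of 0.17 found for Diap1, and overlapped the interval of Mmp1, 0.15 to 0.52. Of its 7 tested neighbours within 20 kb, CG7910 was called higher and the others were not called.

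Mmp1 (FBgn0035049, 2R:24671294-24688184), a secreted matrix metalloproteinase that JNK induces at wounds and in invading tissue, was higher in the overexpression heads. It had 2434 and 2413 normalized reads in the overexpression libraries against 1877 and 1966 in the controls. Both overexpression libraries lay above both controls, and the 2 libraries of a group differed by 0.854% of their mean in the overexpression group and by 4.61% in the control group. The authors' deposited table gives a log2 fold change of 0.31 with an SE of 0.0854 and an adjusted p of 0.00639. The ratio was 1.26 with a 95% interval from 1.11 to 1.43.

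Leaving out each library in turn kept the Mmp1 ratio between 1.23 and 1.29. In limma-voom fits its adjusted p was 0.0589 with size factors, 0.0512 with totals of recovered reads, 0.0248 with quantile normalization, 0.0240 for genes with a mean of at least 100 and 0.0478 with no filter on low counts. Pof, which encodes a protein that binds chromosome 4 genes, overlaps Mmp1 on the opposite strand. It had a log2 fold change of 0.41 and an adjusted p of 0.0829 in the authors' deposited table, and the strand setting of the counting is not given in the sources used here.

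Ets21C (FBgn0005660, 2L:544925-552923), an ETS-family transcription factor that JNK signalling and infection induce, had the largest ratio of the 10 genes. It had 234 and 226 normalized reads in the overexpression libraries against 106 and 111 in the controls, from 268, 250, 116 and 81 reads. The groups did not overlap, and the gap between them was larger than the gap within either. In the authors' deposited table the log2 fold change was 0.57 with an SE of 0.160 and an adjusted p of 0.00706. That fold change is shrunken towards 0, and the ratio of normalized reads was 2.12 with a 95% interval from 1.41 to 3.17.

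Without each library in turn the Ets21C ratio stayed between 2.07 and 2.16. Its limma-voom adjusted p was 0.0776 with size factors, 0.0687 with totals of recovered reads, 0.136 with quantile normalization, 0.0274 for genes with a mean of at least 100 and 0.0602 with no filter on low counts. nAChRbeta3, which overlaps Ets21C on the opposite strand, had no reads in any library.

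**Figure D2:**
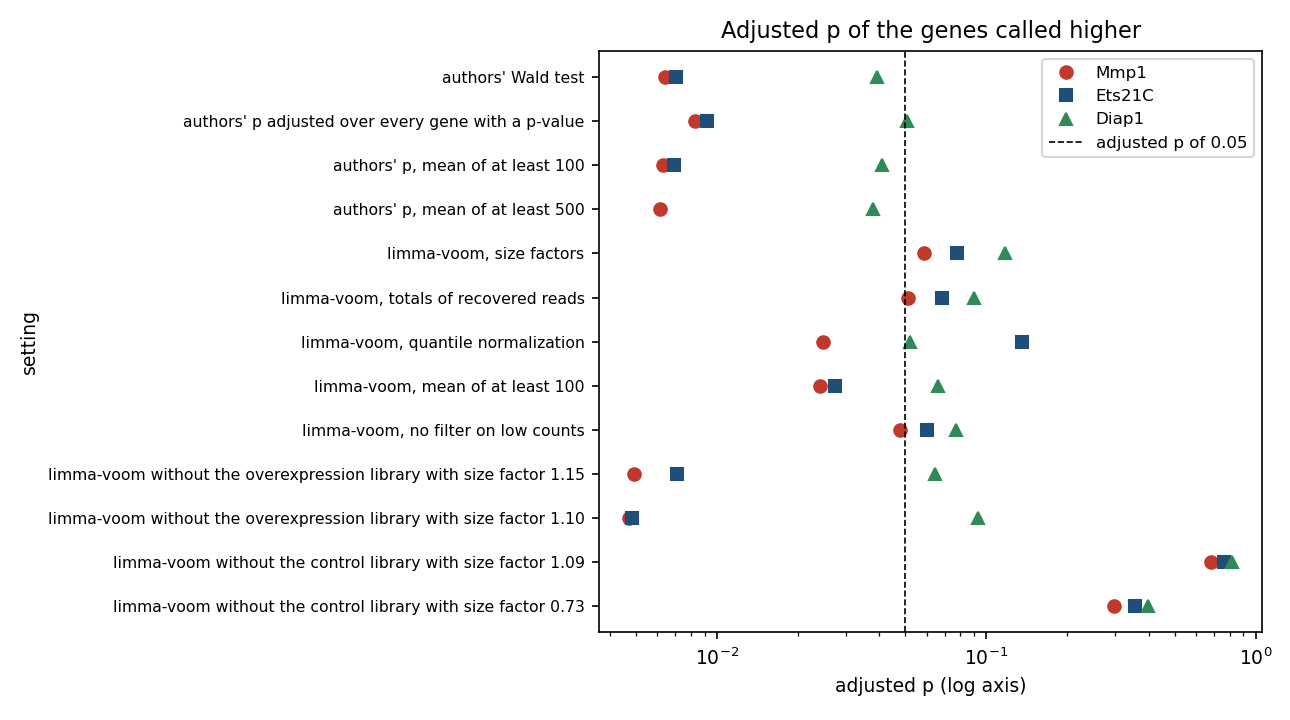
Adjusted p (log axis) of Mmp1, Ets21C and Diap1 in the authors' Wald test, under other sets of genes for the adjustment, and in limma-voom fits to recovered reads; the dashed line marks 0.05. Diap1 lies at 0.0519 or above in every limma-voom fit, and all 3 genes lie right of the line when either control library is left out.

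The limma-voom fits called fewer genes in the whole table than the Wald test did. They called 0.622% of genes higher with size factors, 0.75% with totals, 1.49% with quantile normalization, 2.38% for means of at least 100 and 1.33% with no filter, and in the same order 0 of 9, 0 of 9, 1 of 9, 2 of 8 and 1 of 9 of the genes described here that entered the fit. Xrp1, with a mean above 10000, was outside every limma-voom fit, and rpr was outside that for means of at least 100.

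With 2 libraries a group, a limma-voom fit without 1 library had a single library in that group. These fits used size factors, and with all 4 libraries that setting called none of Mmp1, Ets21C and Diap1. So leaving out a control could remove no call of these genes. Without the control library of size factor 1.09, limma-voom gave adjusted p of 0.682 for Mmp1, 0.762 for Ets21C and 0.817 for Diap1, and without that of size factor 0.73 it gave 0.298, 0.357 and 0.397. In these fits the lone control is assumed to vary like the other group, and limma called 0 genes higher in the whole table, with 672 and 1145 genes at an unadjusted p under 0.05 in either direction. Without the overexpression library of size factor 1.15 or 1.10, limma-voom gave Mmp1 adjusted p of 0.00493 and 0.00472 and Ets21C 0.00709 and 0.00484, while Diap1 had 0.0642 and 0.0931. In these 2 fits 14.5% and 9.02% of all genes were called higher.

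Among 23 tested JNK targets and wound response genes, 5 were called higher and 0 lower, beside 5.66% and 3.07% of all genes tested. The median log2 fold change was 0.07. Like the other lists, this list was chosen with earlier results of these data known. Besides Mmp1 and Ets21C the called genes were ple, ImpL2 and Timp, so the list held both a matrix protease and its inhibitor. ple is the tyrosine hydroxylase gene that epidermal wounds induce in embryos and that also makes dopamine in neurons. It had 4753 and 4628.5 normalized reads in the overexpression libraries against 2158 and 2228 in the controls. Its log2 fold change in the authors' deposited table was 1.04 with an adjusted p of 4.66e-42. ImpL2, a secreted protein that binds insulin-like peptides, had 0.55 with an adjusted p of 5.17e-08 in the authors' deposited table.

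Timp, the tissue inhibitor of metalloproteinases, had 3274 and 3213 normalized reads in the overexpression libraries against 2619 and 2609 in the controls. Its log2 fold change in the authors' deposited table was 0.29 with an SE of 0.0751 and an adjusted p of 0.00266, beside 0.31 for Mmp1. With limma-voom and size factors, ple and ImpL2 kept their calls at adjusted p of 0.000662 and 0.0105, and Timp had 0.0535. Gadd45, a stress gene, came nearest among those not called in the authors' deposited table, with a log2 fold change of 0.40 and an adjusted p of 0.0650. Ddc, the decarboxylase that follows tyrosine hydroxylase in the same synthesis and the most abundant gene of the list, had -0.28 and 0.0988 in the authors' deposited table.

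**Figure D3:**
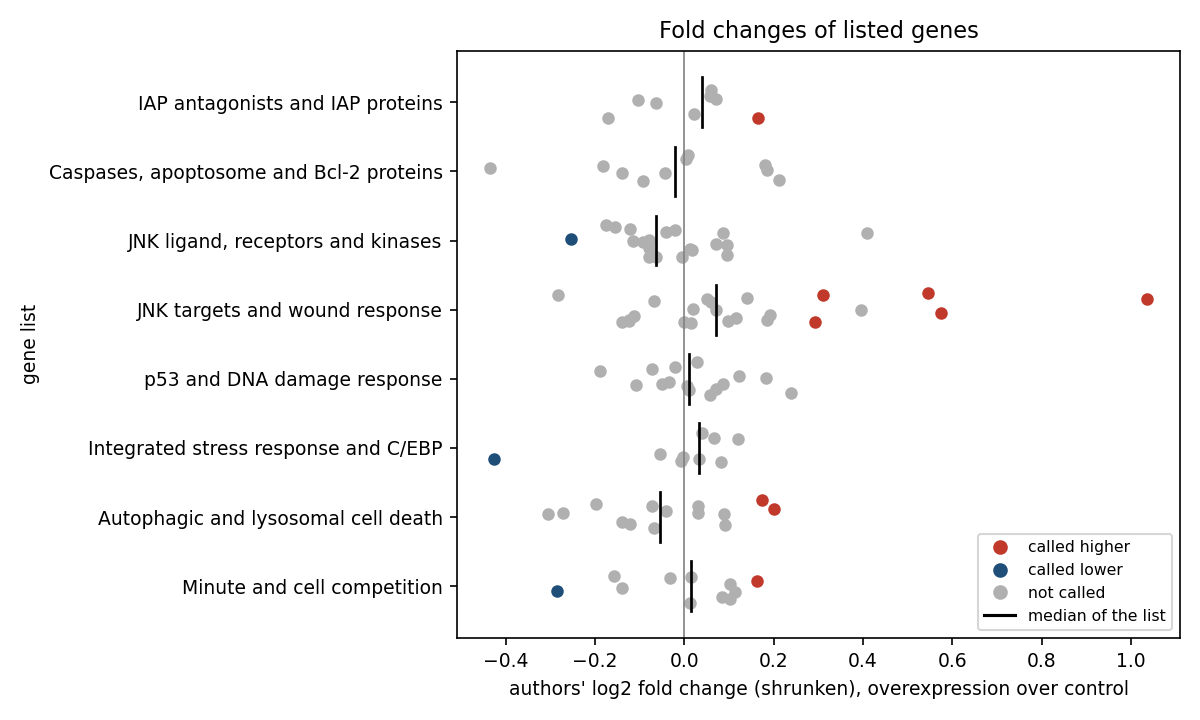
Log2 fold changes of the authors' deposited table, shrunken, for the tested genes of 8 lists; each point is 1 gene, red points were called higher and blue points lower at an adjusted p under 0.05, and black bars mark the list medians. The list of JNK targets and wound response genes has 5 of 23 points in red, with ple at 1.04 farthest to the right, and the caspase list has none in colour.

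Genes that mark some other tissues differed between the same groups. Over all genes tested 5.66% were called higher and 3.07% lower, and at those shares lists this short would hold few calls. Of 4 muscle genes, 4 were called higher in the authors' deposited table, and the 2 with recovered reads, Prm and Mlp84B, sum to 12225 and 11809 normalized reads in the overexpression libraries against 8715 and 9384 in the controls. Of 6 gut genes 3 were called higher and Amy-p lower, and the 5 with recovered reads sum to 1142 and 3332 in the overexpression libraries and to 0.918 and 1.37 in the controls, where Jon65Aiii, Mal-A7 and alphaTry had no reads. All 5 male tract genes were called higher, with Acp26Aa and ProtB at 0 reads in both controls. Of 4 head fat body genes 2 were called higher and 1 lower, 1 of 4 neuronal and 1 of 4 photoreceptor genes were called lower, and 0 of 4 glial and 0 of 3 tested ovary and yolk genes were called. The part of these tissues in the values of Mmp1, Ets21C, Diap1 and the other called genes was not tested.

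Markers of hemocytes, the blood cells that gather at wounds, did not pass the test in 7 of 7 cases. Over all genes tested 8.74% were called. The median log2 fold change of these markers was 0.12, beside 0.01 over all genes tested. Both overexpression libraries lay above both controls in 4 of the 6 markers with recovered reads, and in 31% of all genes with recovered reads. The 6 with recovered reads sum to 12655 and 12214 normalized reads in the overexpression libraries against 11895 and 11296 in the controls.

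Xrp1 (FBgn0261113, 3R:18914968-18926989) encodes a transcription factor that responds to irradiation and to ribosomal protein loss, and partners with Irbp18. It had 25715 and 26112 normalized reads in the overexpression libraries against 25508 and 25299 in the controls. Both overexpression libraries were above both controls, by less than the gap between the 2 overexpression libraries. Its log2 fold change in the authors' deposited table was 0.03 with an SE of 0.0432 and an adjusted p of 0.851. The 95% interval of the ratio, 0.961 to 1.08, was the narrowest of the 10 genes. Its reads are the least certain of the 10, since 26 of 40 means altered at random also had a solution, 2 of them as near to the deposited fold change.

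Irbp18 (FBgn0036126, 3L:11097446-11098186), the C/EBP-type partner of Xrp1, had 593 and 535 normalized reads in the overexpression libraries against 664 and 579.9 in the controls. The groups overlapped, with 1 overexpression library above 1 control. In the authors' deposited table its log2 fold change was -0.11 with an SE of 0.137 and an adjusted p of 0.798. The interval of its ratio, 0.709 to 1.16, was wider than that of Xrp1. CG33947, which overlaps it on the opposite strand, had a log2 fold change of -0.19 and an adjusted p of 0.596 in the authors' deposited table. Near Xrp1, CG42613, which starts or ends 2207 bases away, was called lower.

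Xrp1 and Irbp18 are linked to the DNA damage response and to stress signalling. Of 15 tested genes for p53 and the DNA damage response, 0 were called, beside 8.74% of all genes tested. Their median log2 fold change was 0.01. Ku80, a DNA end-joining gene, came nearest in the authors' deposited table, at 0.24 with an adjusted p of 0.307. Among the 9 tested genes for the integrated stress response and C/EBP factors, the median was 0.03. Of these genes 1 was called lower, beside 3.07% of all genes tested. That gene was eIF4EHP, a cap-binding repressor of translation, with a log2 fold change of -0.43 and an adjusted p of 0.00392 in the authors' deposited table. In limma-voom with size factors its adjusted p was 0.0910. Thor, the 4E-BP gene, and crc, the ATF4 gene, had 0.12 with an adjusted p of 0.415 and 0.08 with 0.567 in the authors' deposited table.

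Among the 11 tested genes linked to Minute mutations and cell competition, 1 was called in each direction. Over all genes tested 5.66% were called higher and 3.07% lower, and the median of the list was 0.01. SPARC, a collagen-binding matrix protein that loser cells express, had a log2 fold change of 0.16 with an adjusted p of 0.0333 in the authors' deposited table. fwe, a membrane protein whose isoforms mark losers and winners, had -0.28 with an adjusted p of 0.000241 in the authors' deposited table. In limma-voom with size factors its adjusted p was 0.0463. With totals of recovered reads and with quantile normalization, limma-voom called 0 genes of the 8 lists lower, fwe included. RpS3 had 0.11 with an adjusted p of 0.0633 in the authors' deposited table.

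The 14 tested genes for autophagic and lysosomal cell death had a median of -0.05. Of them 2 were called higher and 0 lower, beside 5.66% and 3.07% of all genes tested. Both were lysosomal proteases, cathD at a log2 fold change of 0.20 with an adjusted p of 0.000312 and CtsL1 at 0.17 with 0.00404 in the authors' deposited table. EcR, the ecdysone receptor gene, had -0.27 and 0.0756 in the authors' deposited table.

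The levels of the 10 genes spanned more than 2 orders of magnitude when given per kb of annotated exon. Xrp1 had 5317 normalized reads per kb and Diap1 2675, above 96.1% and 92.7% of the genes tested. Irbp18 followed at 966, puc at 718, egr at 644 and Mmp1 at 449 normalized reads per kb. The 3 IAP antagonists were far lower, at 130 for hid, 73.4 for skl and 41.3 for rpr, and Ets21C had the lowest mean over the 4 libraries, at 31.3 normalized reads per kb. The order of those last 2 genes differed between the groups: in the controls Ets21C had 20.1 and rpr 46 normalized reads per kb, and in the overexpression libraries Ets21C had 42.6 and rpr 36.6. The libraries of puc and egr overlapped in level, from 659 to 765 and from 612 to 687 normalized reads per kb, as did those of rpr and Ets21C, from 31.0 to 53.3 and from 19.7 to 43.3. The other neighbours in this order did not overlap in any of the 4 libraries.

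**Figure D4:**
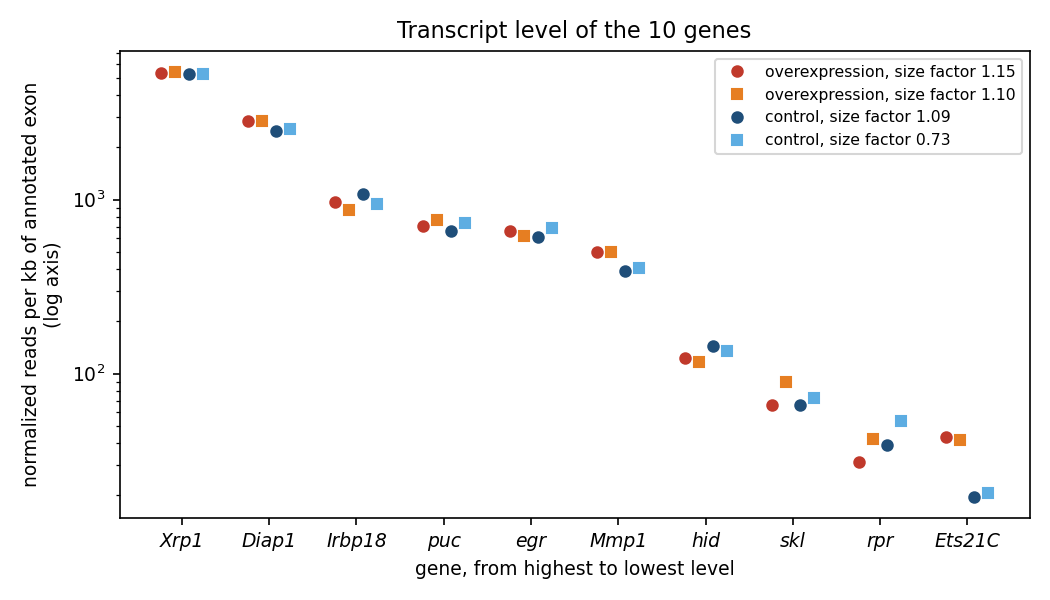
Normalized reads per kb of annotated exon (log axis) for the 10 genes in each of the 4 libraries, ordered from the highest to the lowest mean. Xrp1 lies near 5317 and Ets21C near 31.3, and the IAP antagonists hid, skl and rpr lie below the 6 genes from Xrp1 to Mmp1.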

How the data were processed

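The 4 libraries were sequenced from poly-A selected RNA of pooled heads, per the labels. The submitters' processing notes name build BDGP6 and the tools DESeq, DESeq2 1.22.1, STAR 2.5 and HTSeq, without roles. The analysis used the authors' deposited comparison: a mean normalized count per gene (signal), a log2 fold change with its SE, a Wald score and a p-value with its adjusted p-value. The bound on the SE showed a fold change shrunken towards 0. A second deposited table, whose samples are not named, was not used.

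Whole reads were recovered from the mean, fold change and SE. Exactly 1 set of reads solved 100% of genes up to a mean of 100, 97.3% from there to 1000, 98.4% to 3000 and 96.3% to 10000. With means altered at random, 0.25%, 12.8%, 0%, 0% and 3.5% of genes had a solution in the ranges up to 30, 100, 1000, 3000 and 10000. Above a mean of 1000, only the larger of the 2 precisions that give an SE was used. The recovery was tested on simulated data. A library's group comes from the sign the authors' table gives genes with 1 read. Of 10639 genes tested, 28 had a ratio of opposite sign to the deposited fold change, with log2 ratios of at most 0.0121 in size. Above a mean of 100, reads were kept only where they gave the deposited fold change. From 30 to 100 the same held where several sets of reads gave the mean. For these genes this count is no independent check.

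Fits to the recovered reads used limma 3.58.1 in R 4.3.3, tested on simulated data, as alternatives chosen after seeing the data. Of 116 listed symbols, 113 matched a gene. Levels per kb use exons of the BDGP6 annotation. The genes and lists were chosen with earlier results of these data known. All called genes of a list are named, with its nearest gene not called and its most abundant gene, and called neighbours within 20 kb. Exact binomial intervals cover counting error only; the other 95% intervals come from the authors' SE with the shrinkage undone.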

Additional observations from a re-analysis of the deposited data

How the results depend on the processing

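With thresholds of 0.01 and 0.1 in place of 0.05, 2 and 3 of the 10 genes were called higher. It was 2 of 10 when p-values were adjusted over every gene that has one. For means of at least 100 it was 3 of 9, and for means of at least 500, where Ets21C falls outside, 2 of 7. The share of all genes called higher was 5.66% at 0.05 and is not given for these other settings, so these counts have no background beside them. In limma-voom fits with all 4 libraries it was 0 with size factors, 0 with totals of recovered reads, 1 with quantile normalization, 2 for means of at least 100 and 1 with no filter on low counts, with Xrp1 outside each fit and rpr outside that for means of at least 100. Leaving out 1 library gave 0 to 2.

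In the 8 lists, 9 of 111 tested genes were higher and 3 lower, where 5.66% and 3.07% of all genes tested were. At a threshold of 0.1 the lower ones numbered 6, and the share of all genes at that threshold is not given here. Of 97 list genes in limma-voom, 2 were higher and 1 lower with size factors, and 3 and 0 with totals of recovered reads. Quantile normalization gave 4 and 0 of 97. It was 5 and 2 of 88 for means of at least 100, and 4 and 1 of 99 with no filter. In the same order these fits called 0.622%, 0.75%, 1.49%, 2.38% and 1.33% of all genes higher. They called 84, 73, 124, 198 and 127 genes lower, of 10934, 10934, 10934, 7854 and 14459. Genes with means above 10000, such as cathD, CtsL1 and SPARC, were outside those fits. Leaving out 1 library gave 0 to 11 higher and 0 to 10 lower: 0 and 0 without either control, 11 and 4 without the overexpression library of size factor 1.15, and 8 and 10 without that of 1.10.

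Signs turned for 3 genes that were never called. The log2 fold change of skl was -0.30 with quantile normalization, and ran from -0.065 to 0.37 when 1 library was left out. That of egr was 0.021 with totals of recovered reads, 0.023 with quantile normalization, and -0.11 to 0.061 with 1 library left out. That of puc was -0.0034 to 0.16 with 1 library left out. The log2 fold change of rpr kept its sign, but was -1.35 with quantile normalization beside -0.28 with size factors in limma-voom. The cause was not tested for any of these differences, counts included.

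Undoing the shrinkage, or rescaling so that the median ratio of all genes is 1, turned no sign. No paired analysis was possible because the recovered libraries carry no replicate number. Fits of edgeR and DESeq2 to the recovered reads were not run. With 2 libraries a group, small changes of rpr and skl, which have few reads, lay within the intervals of their ratios. From the authors' SE with the shrinkage undone, these ran from 0.328 to 1.94 for rpr and from 0.639 to 1.95 for skl. For counting error alone, the intervals were narrower, from 0.585 to 1.15 for rpr and from 0.919 to 1.37 for skl. The effect of depth on what could be detected was not tested.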
